A study of Homo sapiens with 6 samples.

Results

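The 38 genes described here encode the regulators, membrane proteins, hydrolases and proton pump of the lysosome and the machinery of autophagy. They were taken by gene symbol from a named list, the first row counting where a symbol repeats, and all 38 were found among the 26819 genes of the expression table. The rule uses gene names and no measured value. The lysosome is an acidic compartment in which hydrolases break down proteins, lipids, glycans and nucleic acids. Autophagy delivers the cell's own cytoplasm to it. An isolation membrane forms, is marked by lipid-bound proteins of the ATG8 family, closes around cargo held by receptors such as SQSTM1, and fuses with a lysosome. The transcription factors TFEB, TFE3 and MITF (the MiT/TFE factors) bind a short palindromic element, known as CLEAR, in many lysosomal and autophagy promoters, and the kinase complex mTORC1 holds them in the cytoplasm while nutrients are plentiful.

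RNA was measured in C4-2 cells, which descend from the human prostate cancer line LNCaP, grow without androgen and were kept in RPMI-1640 with fetal bovine serum. Both groups carried Tet-O-YAP5SA, a transgene switched on by doxycycline. It encodes YAP1, a transcriptional coactivator of the Hippo pathway, with the serines targeted by the LATS kinases replaced so that the protein escapes their inhibition. The Dox group is 3 libraries from cells given doxycycline for 24 hours, and the Ctrl group is 3 libraries from cells without it. The label gives the dose as 0.2 mg/ml, a unit that is in doubt. No doxycycline-treated cells without the transgene were analysed here, so the drug and the transgene cannot be told apart. The labels do not say whether the line is a single clone or whether the libraries came from separate cultures, so the spread behind each p-value, that between libraries, may be technical.

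The values are TPM, in which the reads of a gene are divided by its length and each library is scaled to a common total. A level of 1 TPM in at least 3 libraries was reached by 14833 of the listed genes, which were tested with limma on log2(TPM + 1), with p adjusted over all of them and a threshold of 0.05. A gene past that threshold is called, and only called genes are said to have risen or fallen. A log2 fold change is Dox minus Ctrl, given with its standard error (SE), and a fold without "log2" is a ratio of mean TPM. Group means are given ± SD over n = 3 libraries each. The libraries hold 24960742 to 29261887 recovered reads in Dox and 27591910 to 28805047 in Ctrl, and the members' own reads ran from 144 (MITF) to 43137 (PSAP) per library. YAP1 itself, whose reads come from the native gene and possibly from the transgene, averaged 269 ± 6.92 TPM in Dox and 56.8 ± 3.72 TPM in Ctrl, a 4.74-fold rise (limma adjusted p = 6.2e-08). Among 10 markers of luminal prostate epithelium, all were tested, 3 rose and 6 fell (90% called, beside 53.7% of all tested genes). Their summed levels were 4668 to 4702 TPM in Dox and 6256 to 6323 TPM in Ctrl. Most of that difference lay in KLK3, at 1795 TPM in Dox and 3297 TPM in Ctrl. The part of these markers in the results below was not tested.

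The letters that the MiT/TFE factors are known to bind were looked for in the RefSeq promoters (GRCh38.p14, 250 bases before to 50 after the gene start) of the 30 members that matched by symbol. The other members, LAMP2, CTSB, HEXA, PSAP, ATP6V1A, ATP6V1B2, ATP6V1H and UVRAG, were not searched. Among them CTSB, ATP6V1B2 and ATP6V1H rose and LAMP2 fell, so the counts by direction leave these out. The motifs TCACGTGA and GTCACGTG were searched on both strands, GTCACGTG also as its reverse complement CACGTGAC, and matches that overlap, as in GTCACGTGAC, were counted as 1 stretch. A stretch was found in 6 of the 30 promoters (20%), against 725 of 27305 promoters in all (2.66%). Since the element is already known from lysosomal promoters, that share is not a result of the RNA values. The 6 are GAA, CTSA, LAMP1, MCOLN1, CTSD and ATP6V0D1. A match is a run of letters and not a measured binding site. The 250 bases before the start are printed 5′ to 3′ on the gene's strand, with each stretch in capitals, for GAA (chr17:80101331-80101580, plus strand) and CTSA (chr20:45891085-45891334, plus strand), the 2 that rose with the TPM as deposited. They are also printed for LAMP1 (chr13:113296989-113297238, plus strand), whose promoter holds 5 stretches before the start and 1 more across it.
GAA: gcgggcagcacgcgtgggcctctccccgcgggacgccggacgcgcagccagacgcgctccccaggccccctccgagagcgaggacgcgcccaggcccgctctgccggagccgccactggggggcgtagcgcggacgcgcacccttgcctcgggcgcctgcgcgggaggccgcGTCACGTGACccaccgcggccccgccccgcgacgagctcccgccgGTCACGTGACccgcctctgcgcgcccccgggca
CTSA: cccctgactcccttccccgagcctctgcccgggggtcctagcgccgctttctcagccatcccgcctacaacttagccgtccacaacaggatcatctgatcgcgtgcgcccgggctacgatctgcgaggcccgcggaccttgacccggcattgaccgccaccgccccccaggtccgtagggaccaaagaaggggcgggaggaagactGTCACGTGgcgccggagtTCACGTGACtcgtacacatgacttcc
LAMP1: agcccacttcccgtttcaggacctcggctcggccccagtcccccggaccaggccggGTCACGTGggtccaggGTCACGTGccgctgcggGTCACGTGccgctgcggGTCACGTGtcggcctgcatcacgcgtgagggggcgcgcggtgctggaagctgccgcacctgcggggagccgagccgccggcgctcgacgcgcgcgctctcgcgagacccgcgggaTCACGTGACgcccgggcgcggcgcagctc

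Shorter pieces show the stretches of the other 3 promoters, in MCOLN1 (chr19:7522553-7522617, plus strand), CTSD (chr11:1763939-1764002, minus strand) and ATP6V0D1 (chr16:67481182-67481246, minus strand). The last sequence is the 250 bases before GABARAPL1 (chr12:10212627-10212876, plus strand), the member that rose most, in which neither motif was found. Apart from GAA and CTSA, these promoters were chosen for printing after the values had been seen.
MCOLN1: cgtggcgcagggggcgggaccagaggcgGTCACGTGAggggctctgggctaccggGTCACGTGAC
CTSD: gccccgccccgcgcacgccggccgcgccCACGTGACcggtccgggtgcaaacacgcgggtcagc
ATP6V0D1: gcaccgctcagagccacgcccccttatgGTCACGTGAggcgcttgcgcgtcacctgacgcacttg
GABARAPL1: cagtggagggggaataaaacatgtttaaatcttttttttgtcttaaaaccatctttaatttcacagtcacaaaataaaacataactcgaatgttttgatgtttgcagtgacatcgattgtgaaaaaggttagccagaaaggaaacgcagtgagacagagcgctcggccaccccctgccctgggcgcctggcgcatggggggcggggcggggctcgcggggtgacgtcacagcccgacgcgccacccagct

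Of the 6 genes whose promoters hold the motif, 2 rose, 0 fell and 4 were not called, beside 53.7% called over all tested genes. That split turned with the scaling. Median-ratio rescaling gave 0 higher and 2 lower (CTSD, adjusted p = 0.018, and ATP6V0D1, 0.0069), with GAA (0.13) and CTSA (0.24) not called. Quantile normalization gave 0 higher and 1 lower (ATP6V0D1, 0.0043). GAA averaged 23.8 ± 2.16 TPM in Dox and 19.9 ± 0.791 TPM in Ctrl. CTSA averaged 20.4 ± 0.542 TPM in Dox and 18.04 ± 0.347 TPM in Ctrl. LAMP1 and MCOLN1 had log2 fold changes of 0.06 ± 0.04 and 0.11 ± 0.10, and CTSD and ATP6V0D1 of -0.08 ± 0.05 and -0.09 ± 0.04. All 4 intervals include 0.

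Lysosome and autophagy genes moved in both directions and mostly by little. All 38 members were tested, of which 15 rose in Dox, 8 fell and 15 were not called. That is 60.5% called, beside 53.7% of all tested genes. Over all genes, 35.9% rose and 17.8% fell. The Dox and Ctrl libraries did not overlap for 28 members (73.7%), against 61.9% of all tested genes. Only 4 members (10.5%) were called with an absolute log2 fold change of 0.5 or more, GABARAPL1 and ATP6V1B2 upwards and CD68 and TFEB downwards, against 18.4% of all tested genes. The members' median log2 fold change was 0.08, beside 0.10 over all genes, and their range was -0.96 to 1.15. The summed level of the 38 genes was 4728 ± 46.7 TPM in Dox and 4581 ± 34.1 TPM in Ctrl (SD, n = 3 each), a ratio of 1.03.

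The split between risen and fallen members depended on how libraries were scaled to each other. Median-ratio rescaling moved the median of all genes by -0.10 and gave 11 higher and 13 lower members, and quantile normalization moved it by -0.13 and gave 12 higher and 11 lower. Under the TPM as deposited and under all 14 alternatives, 17 members were called in the same direction, 10 higher and 7 lower. The share of all tested genes that kept a call in this way is not given here, so the 17 have no such background. The 10 are TFE3, CTSB, CTSZ, GRN, ATP6V1B2, ATP6V1H, GABARAPL1, GABARAPL2, BECN1 and WIPI1. The 7 are TFEB, CD68, CTSH, CTSL, GLA, SQSTM1 and ATG9A.

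**Figure D1:**
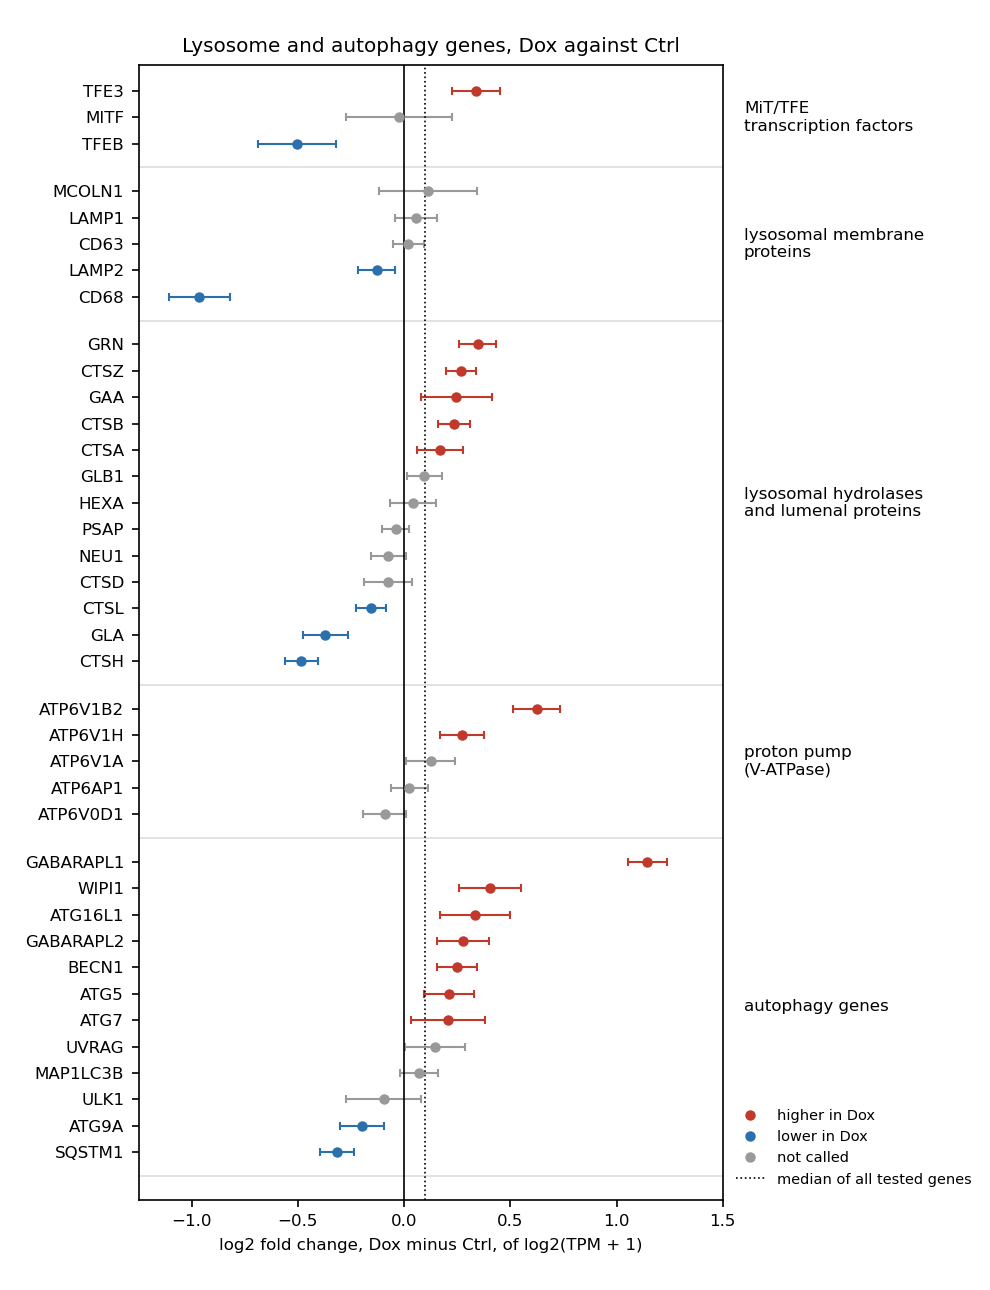
Log2 fold change of each of the 38 genes (x axis, Dox minus Ctrl on log2(TPM + 1)), grouped by function, with points for the estimate and bars for the 95% interval. GABARAPL1 at 1.15 and CD68 at -0.96 lie farthest from 0, and most other genes lie within 0.5 of it on either side.

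The MiT/TFE factors went in different directions. TFE3 (ENSG00000068323.12) was the most abundant of the 3, with 47.4, 51.1 and 52.9 TPM in the Dox libraries, against 38.8, 40.3 and 39.8 TPM in the Ctrl libraries. The Dox libraries were all above the Ctrl libraries, a 1.27-fold rise (log2 fold change 0.34 ± 0.05, limma adjusted p = 0.00075). TFEB (ENSG00000112561.13), the factor best known as a master regulator of lysosome formation, had 6.43, 7.72 and 7.51 TPM in the Dox libraries, against 11.02, 10.7 and 10.1 TPM in the Ctrl libraries. Every Dox value lay below every Ctrl value, a 1.47-fold fall (log2 fold change -0.50 ± 0.08, limma adjusted p = 0.0012). MITF (ENSG00000187098.10), which also drives the pigment cell programme, stood at 2.66, 3.26 and 3.21 TPM in the Dox libraries, against 3.01, 3.52 and 2.80 TPM in the Ctrl libraries. Those libraries overlapped and the gene was not called (log2 fold change -0.02 ± 0.11, 95% interval -0.27 to 0.23).

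TFE3 made up a larger share of the family's RNA in Dox. Its share of the summed TPM of the 3 factors was 83.1% ± 0.793 in Dox and 74.3% ± 1.06 in Ctrl, and that of TFEB was 11.9% ± 0.528 in Dox and 19.9% ± 0.833 in Ctrl (SD, n = 3 each). The sum was 60.7 ± 3.75 TPM in Dox and 53.4 ± 1.01 TPM in Ctrl. These are RNA levels, whereas the factors are known to be controlled by phosphorylation and nuclear entry, which were not measured here. Of 5 melanocyte markers, PMEL and TYRP1 were analysed here and both rose, with summed levels of 15.6 to 16.0 TPM in Dox and 6.43 to 8.30 TPM in Ctrl. Their part in the MiT/TFE values was not tested.

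**Figure D2:**
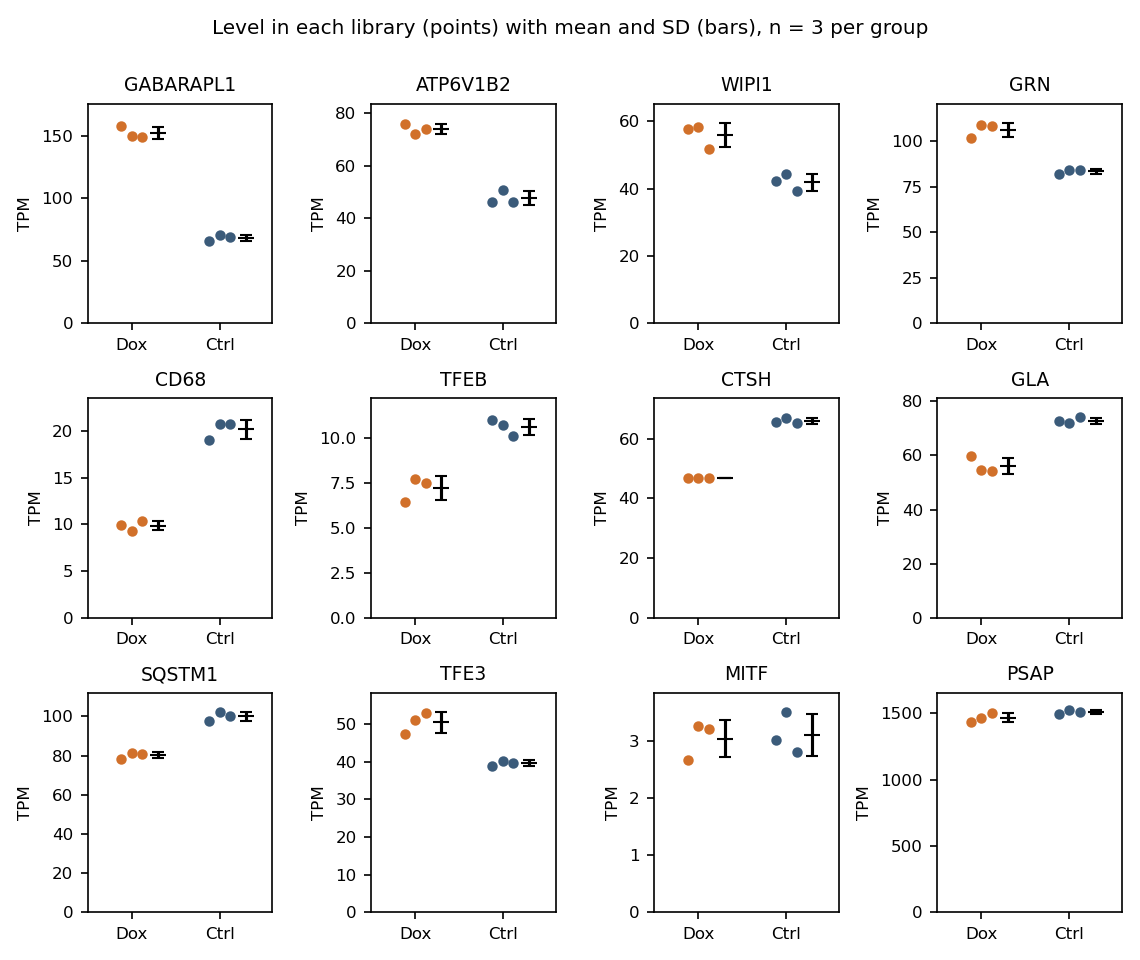
TPM of 12 members in each library (y axis from 0, 1 panel per gene), Dox left of Ctrl, with the mean and SD beside the points. TFEB, CD68, CTSH, GLA and SQSTM1 lie lower in all 3 Dox libraries than in any Ctrl library, and GABARAPL1, ATP6V1B2, WIPI1, GRN and TFE3 lie higher, while MITF and PSAP overlap.

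Of the 5 lysosomal membrane proteins, 2 fell, 0 rose and 3 were not called, with a median log2 fold change of 0.02. That is 40% called, beside 53.7% of all tested genes. CD68 (ENSG00000129226.9), a heavily glycosylated protein of late endosomes and lysosomes that is used as a macrophage marker, had 9.89, 9.33 and 10.3 TPM in the Dox libraries, against 19.0, 20.7 and 20.8 TPM in the Ctrl libraries. The groups were far apart relative to their spread, with a 2.05-fold fall (log2 fold change -0.96 ± 0.06, limma adjusted p = 1e-05). The 7 myeloid markers analysed here summed to only 0.504 to 0.954 TPM in Dox and 0.701 to 1.15 TPM in Ctrl, and none reached the level needed for testing. In bulk RNA, fewer cells with a transcript and less of it per cell cannot be told apart. In GENCODE 29, 1789 exonic bases of CD68 also lie in exons of a gene on the same strand. The shortest length that gave whole CD68 reads was 2187 bases. The overlapping gene, listed as SNORA67, stood at 818 TPM in Dox and 1165 TPM in Ctrl. How reads of the pair were assigned is not stated, so the CD68 values are uncertain, and the part of the shared exons in the fall was not tested.

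The 2 major membrane glycoproteins that line the lysosome had small differences. LAMP2, one isoform of which imports proteins in chaperone-mediated autophagy, fell to 151 ± 4.53 TPM in Dox, against 165 ± 5.37 TPM in Ctrl (log2 fold change -0.13 ± 0.04, limma adjusted p = 0.022). That call was lost without the variance trend (adjusted p = 0.062), without Ctrl replicate 3 (0.088), without Dox replicate 1 (0.061) and without Dox replicate 3 (0.063). LAMP1 averaged 84.9 ± 3.43 TPM in Dox and 81.6 ± 2.42 TPM in Ctrl, with a 95% interval of -0.04 to 0.15 for its log2 fold change. CD63, a tetraspanin of late endosomes and secreted vesicles and the most abundant of the 5, averaged 683 ± 11.6 TPM in Dox and 674 ± 21.4 TPM in Ctrl (interval -0.05 to 0.09). Its direction turned with the scaling, with a log2 fold change of -0.09 under median-ratio rescaling and of 0.13 under quantile normalization, which called it higher (adjusted p = 0.0056) and made the split 1 higher and 2 lower. MCOLN1, the calcium channel TRPML1, averaged 7.83 ± 0.870 TPM in Dox and 7.17 ± 0.735 TPM in Ctrl (interval -0.12 to 0.34). The 5 together summed to 936 ± 5.30 TPM in Dox and 947 ± 20.3 TPM in Ctrl.

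Among the 13 hydrolases and other lumenal proteins, 5 rose, 3 fell and 5 were not called (61.5% called, beside 53.7% of all tested genes). The median log2 fold change of the 13 was 0.04. Their sum was nearly equal, 2710 ± 55.1 TPM in Dox and 2711 ± 24.2 TPM in Ctrl (SD, n = 3 each). PSAP alone, at 1468 TPM in Dox and 1509 TPM in Ctrl, made up most of both sums, so they mainly follow that gene. The counts were 3 higher and 6 lower with median-ratio rescaling, 4 and 4 with quantile normalization, and 5 and 6 with voom on recovered reads. Within the cathepsins, the main lysosomal proteases, CTSB and CTSZ rose while CTSH and CTSL fell, although all 4 are cysteine cathepsins. CTSZ averaged 346 ± 8.80 TPM in Dox and 287 ± 2.59 TPM in Ctrl, a 1.21-fold rise (limma adjusted p = 0.00019). CTSB averaged 114 ± 2.73 TPM in Dox and 96.5 ± 1.22 TPM in Ctrl, a 1.18-fold rise (limma adjusted p = 0.00065). CTSH, an aminopeptidase as well as an endopeptidase, had 46.9, 46.9 and 46.8 TPM in the Dox libraries, against 65.5, 67.0 and 65.3 TPM in the Ctrl libraries. Its Dox libraries were nearly identical and all below the Ctrl libraries (log2 fold change -0.48 ± 0.03, limma adjusted p = 1.5e-05). CTSL averaged 165 ± 1.93 TPM in Dox and 183 ± 3.97 TPM in Ctrl (log2 fold change -0.15 ± 0.03, limma adjusted p = 0.0036).

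CTSD, the aspartic cathepsin, averaged 229.6 ± 14.9 TPM in Dox and 242 ± 5.55 TPM in Ctrl and was not called. It was called lower with median-ratio rescaling (adjusted p = 0.018) and with voom (0.025). It shares 1304 of its 2999 exonic bases with RP11-295K3.1 on the same strand, a gene at 314 TPM in Dox and 304 TPM in Ctrl, so its level is uncertain. CTSA, a serine carboxypeptidase that protects the sialidase NEU1 and the galactosidase GLB1 in a complex, rose by 0.17 ± 0.05 on the log2 scale (limma adjusted p = 0.016). The CTSA call was lost with median-ratio rescaling (adjusted p = 0.24), quantile normalization (0.82), and without Ctrl replicate 3 (0.062) or Dox replicate 1 (0.051). Its partners were not called. NEU1 averaged 49.0 ± 0.852 TPM in Dox and 51.7 ± 0.793 TPM in Ctrl, and GLB1 51.8 ± 1.11 TPM in Dox and 48.4 ± 0.334 TPM in Ctrl. NEU1 was called lower under both rescalings and voom (adjusted p of 0.0025, 0.0015 and 0.028), and GLB1 was called higher without the expression filter (0.044).

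The glycosidases also parted. GLA, the alpha-galactosidase that is deficient in Fabry disease, had 59.6, 54.6 and 54.3 TPM in the Dox libraries, against 72.6, 71.9 and 74.1 TPM in the Ctrl libraries. All Dox libraries were below all Ctrl libraries, a 1.30-fold fall (log2 fold change -0.37 ± 0.05, limma adjusted p = 0.00032). GAA, the acid alpha-glucosidase that breaks down lysosomal glycogen and is deficient in Pompe disease, had 21.3, 24.9 and 25.1 TPM in the Dox libraries, against 19.7, 20.7 and 19.1 TPM in the Ctrl libraries. Its groups did not overlap, but Dox replicate 1 lay close to the Ctrl range, and the rise (log2 fold change 0.25 ± 0.07, limma adjusted p = 0.021) was lost under 6 alternatives. Those were median-ratio rescaling (adjusted p = 0.13), quantile normalization (0.26), and leaving out Ctrl replicate 1 (0.055), Ctrl replicate 3 (0.069), Dox replicate 2 (0.073) or Dox replicate 3 (0.066). HEXA, a subunit of beta-hexosaminidase, averaged 34.1 ± 1.54 TPM in Dox and 33.0 ± 0.554 TPM in Ctrl and was not called. It shares 617 exonic bases with RP11-106M3.2 on the same strand, at 32.8 TPM in Dox and 32.3 TPM in Ctrl.

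GRN encodes progranulin, which is secreted or sorted to lysosomes and cut into granulins there. It had 102, 109 and 108 TPM in the Dox libraries, against 81.6, 83.9 and 84.2 TPM in the Ctrl libraries. The groups were apart, with a 1.27-fold rise (log2 fold change 0.35 ± 0.04, limma adjusted p = 0.00019). PSAP, the precursor of the saposins that present lipids to hydrolases, was the most abundant member, at 1468 ± 33.1 TPM in Dox and 1509 ± 17.5 TPM in Ctrl. It was not called (log2 fold change -0.04 ± 0.03, 95% interval -0.10 to 0.02), and its direction turned with the scaling. It was lower with median-ratio rescaling (adjusted p = 0.013) and with voom (0.031), and higher with quantile normalization (0.037).

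Of the 5 members of the proton pump, the V-ATPase that acidifies the lysosome, 2 rose, 0 fell and 3 were not called. That is 40% called, beside 53.7% of all tested genes. The median log2 fold change of the 5 was 0.13. Their sum was 375 ± 3.67 TPM in Dox and 332 ± 5.90 TPM in Ctrl (SD, n = 3 each), a ratio of 1.13. Most of that difference lay in ATP6V1B2. ATP6V1B2 (ENSG00000147416.6), the B subunit that forms the ATP-hydrolysing head together with ATP6V1A, had 75.9, 72.1 and 74.00 TPM in the Dox libraries, against 46.2, 50.7 and 46.1 TPM in the Ctrl libraries. The groups did not come near each other, with a 1.55-fold rise (log2 fold change 0.62 ± 0.05, limma adjusted p = 2.6e-05). ATP6V1H, a regulatory subunit of the same cytoplasmic sector, averaged 57.0 ± 0.204 TPM in Dox and 47.0 ± 2.39 TPM in Ctrl and also rose (log2 fold change 0.27 ± 0.04, limma adjusted p = 0.0014). ATP6V1A itself, the catalytic A subunit, averaged 99.8 ± 5.75 TPM in Dox and 91.3 ± 3.08 TPM in Ctrl and was not called (limma adjusted p = 0.065). It was called higher with the stricter filter (0.047) and without Dox replicate 3 (0.013). ATP6V0D1, of the membrane sector, averaged 52.0 ± 2.52 TPM in Dox and 55.4 ± 0.271 TPM in Ctrl, and the accessory protein ATP6AP1 averaged 92.5 ± 3.53 TPM in Dox and 90.9 ± 1.51 TPM in Ctrl. Both were not called, although ATP6V0D1 was called lower with median-ratio rescaling (adjusted p = 0.0069), quantile normalization (0.0043) and voom (0.0093), which made the split 2 higher and 1 lower under each of these.

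**Figure D3:**
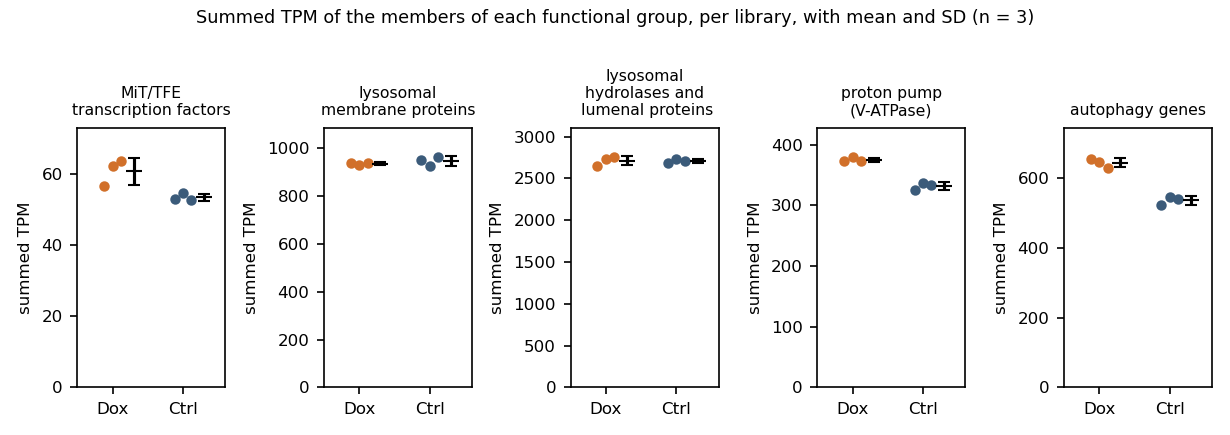
Summed TPM of the members of each functional group in each library (y axis, from 0), Dox left of Ctrl, with the mean and SD. The autophagy genes, at 646 TPM in Dox and 537 TPM in Ctrl, and the proton pump, at 375 TPM in Dox and 332 TPM in Ctrl, lay higher in Dox, while the hydrolases lay at 2710 TPM in Dox and 2711 TPM in Ctrl. Most of the autophagy difference lay in GABARAPL1 and most of the proton pump difference in ATP6V1B2. PSAP made up most of the hydrolase sum.

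The 12 autophagy genes had the highest median log2 fold change of the 5 groups, 0.21, with 7 risen, 2 fallen and 3 not called. That is 75% called, beside 53.7% of all tested genes. The sum of the 12 was 646 ± 13.1 TPM in Dox and 537 ± 12.8 TPM in Ctrl (SD, n = 3 each), a ratio of 1.2. Most of that difference lay in 1 gene, GABARAPL1, at 152 TPM in Dox and 68.4 TPM in Ctrl. The counts were 5 higher and 3 lower with median-ratio rescaling and 4 and 3 with quantile normalization.

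GABARAPL1 (ENSG00000139112.6), an ATG8 protein that is coupled to the lipid of the autophagosome membrane, had 158, 149.9 and 149 TPM in the Dox libraries, against 65.9, 70.3 and 68.9 TPM in the Ctrl libraries. The lowest Dox library stood far above the highest Ctrl library, and the gene rose 2.23-fold (log2 fold change 1.15 ± 0.04, limma adjusted p = 4.6e-07). Its near-identical copy GABARAPL3 averaged 0.0458 TPM in Dox and was listed at 0 in every Ctrl library. GABARAPL2, another member of the family, averaged 101 ± 6.20 TPM in Dox and 83.1 ± 3.26 TPM in Ctrl and rose 1.22-fold (log2 fold change 0.28 ± 0.05, limma adjusted p = 0.0029). MAP1LC3B, the LC3 protein most used to follow autophagy, averaged 32.4 ± 0.521 TPM in Dox and 30.9 ± 0.401 TPM in Ctrl and was not called (log2 fold change 0.07 ± 0.04, 95% interval -0.02 to 0.16).

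Within the ATG8 family of 6 genes, GABARAPL1 made up 19.4% ± 0.216 of the summed TPM in Dox and 9.23% ± 0.219 in Ctrl (SD, n = 3 each). GABARAP, from the wider list, remained the most abundant, with 63.5% ± 0.808 in Dox and 75.4% ± 0.551 in Ctrl. GABARAP itself fell, to 499 ± 8.14 TPM in Dox, against 558 ± 4.91 TPM in Ctrl (limma adjusted p = 0.0013). MAP1LC3B held 4.13% ± 0.0501 in Dox and 4.17% ± 0.0822 in Ctrl. The family's sum was 785 ± 17.0 TPM in Dox and 741 ± 7.22 TPM in Ctrl. GABARAP and the other receptors named next were looked at after their values had been seen.

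SQSTM1 (p62), which binds ubiquitinated cargo and ATG8 proteins at once and is itself degraded by autophagy, had 78.3, 81.5 and 81.0 TPM in the Dox libraries, against 97.5, 102 and 100.4 TPM in the Ctrl libraries. All 3 Dox libraries were below the Ctrl libraries, a 1.25-fold fall in RNA (log2 fold change -0.32 ± 0.04, limma adjusted p = 0.0002). Of the other cargo receptors followed, NBR1, TAX1BP1 and OPTN rose and CALCOCO2 fell. NBR1, which resembles SQSTM1 in its domains, had 111, 118 and 110.2 TPM in the Dox libraries, against 63.0, 67.0 and 64.9 TPM in the Ctrl libraries, with no overlap between the groups (log2 fold change 0.79 ± 0.04, limma adjusted p = 3.4e-06). TAX1BP1 averaged 235 ± 11.2 TPM in Dox and 142 ± 4.48 TPM in Ctrl (limma adjusted p = 7e-06). OPTN averaged 58.8 ± 1.31 TPM in Dox and 38.1 ± 0.316 TPM in Ctrl (limma adjusted p = 6.5e-06). CALCOCO2 (NDP52) averaged 41.8 ± 1.63 TPM in Dox and 48.9 ± 1.54 TPM in Ctrl (limma adjusted p = 0.004). Among these 5 receptors, SQSTM1 accounted for 15.2% ± 0.635 of the summed TPM in Dox and 25.4% ± 0.220 in Ctrl, and TAX1BP1 for 44.4% ± 1.15 in Dox and 36.0% ± 0.608 in Ctrl. The sum of the 5 was 528 ± 13.0 TPM in Dox and 394 ± 9.39 TPM in Ctrl.

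**Figure D4:**
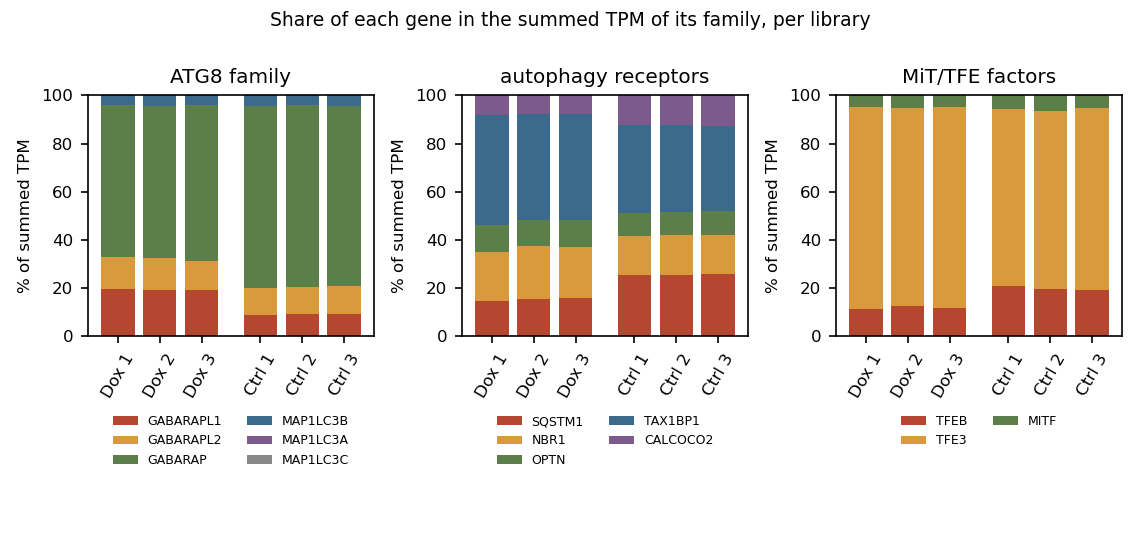
Share of each gene in the summed TPM of its family (y axis, percent) as stacked bars, 1 per library, Dox left of Ctrl, for the ATG8 family, the cargo receptors and the MiT/TFE factors. GABARAPL1 and TFE3 take larger shares in Dox, and SQSTM1 and TFEB smaller ones.

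The remaining autophagy members act in starting and extending the isolation membrane. ULK1, the kinase that starts autophagy under control of mTORC1, averaged 16.8 ± 1.084 TPM in Dox and 18.04 ± 1.56 TPM in Ctrl and was not called, although it was called lower with median-ratio rescaling (adjusted p = 0.036) and quantile normalization (0.013). BECN1, a subunit of the lipid kinase complex that marks the membrane, averaged 65.8 ± 1.123 TPM in Dox and 55.2 ± 2.07 TPM in Ctrl and rose (log2 fold change 0.25 ± 0.04, limma adjusted p = 0.0013). UVRAG, which joins BECN1 in a later-acting form of that complex, averaged 16.2 ± 0.478 TPM in Dox and 14.5 ± 0.925 TPM in Ctrl and was not called (limma adjusted p = 0.077). WIPI1, which binds the lipid that this kinase makes, had 57.6, 58.2 and 51.8 TPM in the Dox libraries, against 42.4, 44.2 and 39.2 TPM in the Ctrl libraries. The groups did not overlap, with a 1.33-fold rise (log2 fold change 0.41 ± 0.06, limma adjusted p = 0.0011). ATG9A, the protein of the vesicles that supply the membrane, fell to 66.2 ± 2.92 TPM in Dox, against 76.1 ± 2.65 TPM in Ctrl (log2 fold change -0.20 ± 0.05, limma adjusted p = 0.0074).

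The last 3 members act in coupling ATG8 proteins to lipid, and the calls of all 3 were lost with quantile normalization. ATG16L1, which directs the coupling to the membrane, averaged 16.8 ± 1.42 TPM in Dox and 13.1 ± 0.613 TPM in Ctrl (log2 fold change 0.33 ± 0.07, limma adjusted p = 0.0053), and its call was lost with quantile normalization (0.071). ATG5, its partner, averaged 34.8 ± 1.31 TPM in Dox and 29.99 ± 1.35 TPM in Ctrl (log2 fold change 0.21 ± 0.05, limma adjusted p = 0.0092), lost with median-ratio rescaling (0.15) and quantile normalization (0.35). ATG7, the activating enzyme, averaged 6.91 ± 0.372 TPM in Dox and 5.85 ± 0.363 TPM in Ctrl and passed the threshold narrowly (log2 fold change 0.21 ± 0.07, limma adjusted p = 0.047). It kept the call in 5 of 14 alternatives. Among the alternatives that ended the call were no filter (adjusted p = 0.093), median-ratio rescaling (0.23), quantile normalization (0.72), and leaving out Ctrl replicate 1 (0.062), Ctrl replicate 2 (0.063), Ctrl replicate 3 (0.16), Dox replicate 2 (0.14) or Dox replicate 3 (0.11). In GENCODE 29, 1596 of the 8833 exonic bases of ATG7 lie opposite exons of VGLL4, which stood at 41.0 TPM in Dox and 24.7 TPM in Ctrl. The libraries were made with a stranded kit, but whether strand was used in counting is not stated, so the part of VGLL4 reads in the ATG7 difference was not tested. Likewise 300 exonic bases of BECN1 lie opposite PSME3, at 127 TPM in Dox and 104 TPM in Ctrl, and 1038 of 5856 of CTSA opposite NEURL2, at 2.60 TPM in Dox and 1.28 TPM in Ctrl. Of the 3402 exonic bases of WIPI1, 828 lie opposite ARSG (4.86 TPM in Dox, 5.98 TPM in Ctrl). Another 127 lie opposite RP11-120M18.2 (93.7 TPM in Dox, 77.6 TPM in Ctrl). ATG9A shares 1833 exonic bases with AC068946.2 on the same strand, for which no level was found. SQSTM1 has 1582 exonic bases opposite MRNIP, listed as C5orf45 (2.44 TPM in Dox, 2.41 TPM in Ctrl). It has 105 opposite MGAT4B (66.8 TPM in Dox, 59.1 TPM in Ctrl). GABARAPL1 has 329 opposite AC115676.1, for which no level was found. The part of these overlaps in the differences was not tested. In all, 16 of the 38 members share exonic bases with another gene on either strand.

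The genes of the same pathways outside the 38 were followed in 5 wider lists. Their counts stand beside 35.9% risen and 17.8% fallen over all tested genes, so the whole table also leaned towards rises. The lists leaned further, with 75% to 87.5% of their called genes higher, beside 5319 of 7959 over all genes. Over all genes, median-ratio rescaling gave 3964 higher and 3948 lower, and quantile normalization 3536 higher and 4348 lower. In the lists, 59.1% to 76.9% of the called genes were higher under the first and 52.2% to 77.8% under the second. No test of the lists as sets was run. Of 40 other hydrolases and lumenal proteins tested, 20 rose, 4 fell and 16 were not called, with a median log2 fold change of 0.15 (16 higher and 8 lower with median-ratio rescaling, 12 and 9 with quantile normalization). The 3 largest rises on log2(TPM + 1) were in GALC, PPT1 and ACP2. GALC, which removes galactose from myelin-type lipids and is deficient in Krabbe disease, averaged 19.2 ± 1.22 TPM in Dox and 5.39 ± 0.285 TPM in Ctrl, a 3.57-fold rise (limma adjusted p = 1.1e-06). PPT1, which strips palmitate from proteins, had 870.2, 832 and 823 TPM in the Dox libraries, against 299, 294 and 298 TPM in the Ctrl libraries. That is a 2.83-fold rise with no overlap (limma adjusted p = 3.5e-08), and it brought PPT1 above every member except PSAP. ACP2, the lysosomal acid phosphatase, averaged 41.6 ± 2.16 TPM in Dox and 24.4 ± 0.988 TPM in Ctrl. The largest falls on that scale were in CTSC, SCPEP1 and MANBA. CTSC, the protease that activates granule proteases in immune cells, averaged 4.60 ± 0.178 TPM in Dox and 7.68 ± 0.759 TPM in Ctrl (log2 fold change -0.63 ± 0.08, limma adjusted p = 0.00051). The carboxypeptidase SCPEP1 averaged 62.6 ± 0.909 TPM in Dox and 82.6 ± 3.48 TPM in Ctrl, and the beta-mannosidase MANBA 14.3 ± 0.175 TPM in Dox and 18.5 ± 0.718 TPM in Ctrl.

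Of 23 other membrane and sorting proteins tested, 13 rose, 2 fell and 8 were not called, with a median of 0.19 (10 higher and 3 lower under both rescalings). NPC1, which moves cholesterol out of the lysosome, averaged 40.1 ± 1.28 TPM in Dox and 19.5 ± 0.657 TPM in Ctrl (log2 fold change 1.001 ± 0.05, limma adjusted p = 2e-06). CTNS, the cystine exporter, averaged 8.51 ± 0.318 TPM in Dox and 4.29 ± 0.249 TPM in Ctrl. The peptide transporter ABCB9 fell to 4.35 ± 0.349 TPM in Dox, against 5.79 ± 0.505 TPM in Ctrl, a call lost without Ctrl replicate 3, and SCARB2, which carries glucocerebrosidase to the lysosome, fell to 276 ± 6.51 TPM in Dox, against 317 ± 10.9 TPM in Ctrl.

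Of 15 other V-ATPase subunits tested, 6 rose, 2 fell and 7 were not called, with a median of 0.12. ATP6V0A4, a membrane sector subunit best known from kidney, averaged 1.91 ± 0.443 TPM in Dox and 0.106 ± 0.0198 TPM in Ctrl. Its Ctrl values rest on 3 to 4 reads per library, so no fold is given (limma adjusted p = 0.00017). ATP6V1D and ATP6V1C1, of the same cytoplasmic sector as ATP6V1B2, rose 1.53-fold and 1.49-fold. ATP6V1D averaged 244 ± 8.56 TPM in Dox and 159.9 ± 3.27 TPM in Ctrl, and ATP6V1C1 averaged 46.5 ± 1.45 TPM in Dox and 31.3 ± 1.199 TPM in Ctrl. ATP6V0E2 and ATP6V0B, both of the membrane sector, also passed the threshold. ATP6V0E2 fell to 171 ± 3.72 TPM in Dox, against 192 ± 0.371 TPM in Ctrl, and ATP6V0B to 240.0 ± 6.45 TPM in Dox, against 262 ± 7.23 TPM in Ctrl. The ATP6V0B call was lost under 4 alternatives (no variance trend, and without Ctrl replicate 1, Ctrl replicate 3 or Dox replicate 2).

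Of 37 other autophagy genes tested, 20 rose, 6 fell and 11 were not called, with a median of 0.19 (13 higher and 9 lower with median-ratio rescaling, 12 and 11 with quantile normalization). PLEKHM1, an adaptor that joins autophagosomes and late endosomes to lysosomes, averaged 10.1 ± 0.499 TPM in Dox and 4.08 ± 0.483 TPM in Ctrl (log2 fold change 1.13 ± 0.09, limma adjusted p = 3.3e-05). Its near-identical copy PLEKHM1P averaged 4.03 ± 0.205 TPM in Dox and 0.927 ± 0.05002 TPM in Ctrl, so reads may be split between the pair and the PLEKHM1 value is uncertain. ULK2, the relative of ULK1, averaged 14.7 ± 0.469 TPM in Dox and 8.33 ± 1.07 TPM in Ctrl and rose 1.76-fold (limma adjusted p = 0.00026), while ULK1 was not called. ATG9B, the relative of ATG9A, averaged 1.85 ± 0.311 TPM in Dox and 3.34 ± 0.501 TPM in Ctrl and fell, as ATG9A did. C12orf44 (ATG101), a subunit of the ULK complex, fell to 64.2 ± 1.56 TPM in Dox, against 74.1 ± 0.528 TPM in Ctrl. RAB7A, the GTPase of late endosomes, rose 1.49-fold, at 598 ± 2.16 TPM in Dox and 400.2 ± 7.92 TPM in Ctrl. It was singled out after its values had been seen.

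The last list holds the Rag GTPases, the Ragulator subunits and the FLCN complex, which recruit mTORC1 to the lysosome and so bear on the MiT/TFE factors. Of 13 tested, 7 rose, 1 fell and 5 were not called, with a median of 0.13 (4 higher and 2 lower under both rescalings). FLCN, the folliculin that lets Rag GTPases present TFEB and TFE3 to mTORC1, averaged 8.31 ± 0.638 TPM in Dox and 5.53 ± 0.235 TPM in Ctrl (log2 fold change 0.51 ± 0.08, limma adjusted p = 0.00087). SLC38A9, the arginine sensor of the lysosome membrane, which stands on this list and on the membrane list, averaged 5.39 ± 0.505 TPM in Dox and 3.81 ± 0.281 TPM in Ctrl, and the GTPase RRAGA averaged 261 ± 9.36 TPM in Dox and 201 ± 6.97 TPM in Ctrl. The Ragulator subunit LAMTOR4 fell, to 136 ± 2.01 TPM in Dox, against 152 ± 6.32 TPM in Ctrl.

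**Figure D5:**
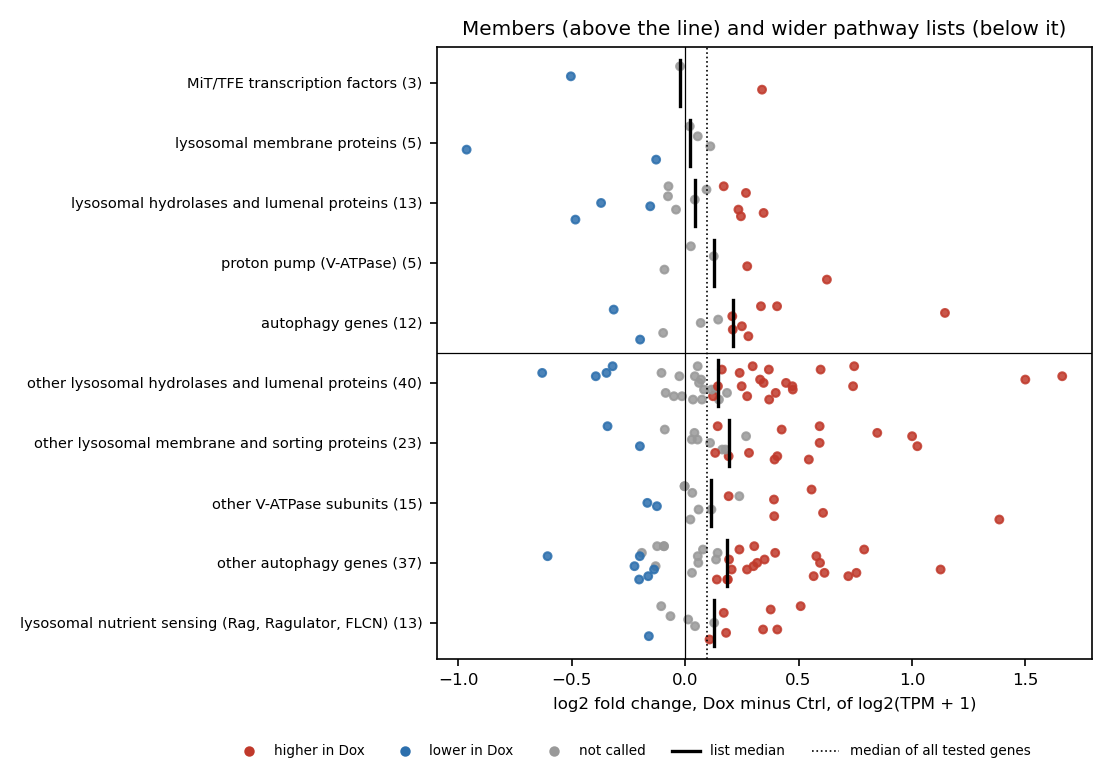
Log2 fold changes (x axis, Dox minus Ctrl on log2(TPM + 1)) of the tested genes in the 5 functional groups and the 5 wider lists, with 1 point per gene and a bar at each list's median. The medians lie between -0.02 and 0.21, beside 0.10 over all tested genes, and the farthest points to the right are GALC and PPT1 on the first row below the line.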

How the data were processed

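The 6 libraries were prepared from C4-2 cells with a stranded mRNA kit, per the labels' protocols, and groups were taken from the sample titles. The submitters' processing notes name FastQC 0.11.2, STAR 2.5.3a, featureCounts, edgeR and hg19, with no roles given. The deposited table holds TPM made by the authors, 1 value per gene and library, so values are shares of a library and a large rise in a gene lowers all others. Not given in the sources used here are the annotation release, the strand setting and how reads in shared exons were treated. Per-library values came from all 6 columns of the table.

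The filter was 1 TPM or more in 3 or more of the 6 libraries. The test was limma 3.58.1 in R 4.3.3 on log2(TPM + 1), two-sided, using lmFit and then eBayes with its variance prior following the mean. Adjustment was by Benjamini-Hochberg over all 14833 genes, with a threshold of 0.05. On this scale, fold changes of genes near 1 TPM come out too small. The script was tested on simulated data with 50 genes changed at each of 4 sizes. It recovered 18% of 1.2-fold, 72% of 1.5-fold, 88% of 2-fold and 100% of 4-fold changes. Far fewer genes were changed there than were called here, so these shares do not carry over to the real data. Alternatives were a pseudocount of 0.1, no filter, a minimum mean of 5 TPM, quantile normalization, median-ratio rescaling, no variance trend, the replicate number as a block and the omission of each library in turn. limma's voom on recovered reads was added after seeing the data. Reads were recovered from TPM, gene length and 1 constant per library, with a tolerance of 0.01 reads. Of the tested genes, 9115 came out whole with the GENCODE 29 exon length and 5718 with the shortest length to give whole reads (100% together). On a gene of 1 kb, 3 reads correspond to 0.335 to 0.401 TPM, a floor for counting error alone. No library repeated another of its group (chi-square per gene of 2.38 to 4.49 between them), and each was counted as its own sample. That check cannot tell whether they came from separate cultures.

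The members, the lists and the tests were chosen with earlier results of these data known. All 38 members are named. Each library's value is given for called members whose absolute log2 fold change was 0.5 or more and for the MiT/TFE factors, and from each wider list up to 3 called genes per direction with groups that do not overlap are named. Some genes that meet this rule are not reported here. The library values of CTSH, GLA, GAA, GRN, SQSTM1, WIPI1, NBR1 and PPT1 were added after the values were seen. Gene overlaps came from GENCODE 29 and promoters from RefSeq, both on GRCh38, used for these purposes only. Protein sequences that had been planned for display were not used here. Figures were drawn with matplotlib 3.10.9.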

Additional observations from a re-analysis of the deposited data

How the results depend on the processing

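Of the 23 called members, 17 kept their call and direction under every one of the 14 alternatives, and 6 (LAMP2, CTSA, GAA, ATG5, ATG7 and ATG16L1) lost it under at least 1. The same count over all tested genes is not given here. Of the 15 not called, 8 were called under at least 1 alternative and 7 (among them LAMP1, MITF and MAP1LC3B) under none. The split by direction moved with the scaling. Median-ratio rescaling gave 13 lower members in place of 8, and quantile normalization gave 3536 higher and 4348 lower genes over the whole table in place of 5319 and 2640. Quantile normalization also turned the direction of PSAP, to a log2 fold change of 0.11. The cause of these differences was not tested.

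Leaving out 1 library at a time gave 6752 to 7589 called genes in all, 4445 to 5278 higher and 2204 to 2417 lower. Members called numbered 19 to 22, the fewest without Ctrl replicate 3. The lysosomal membrane group had 1 called gene, CD68, without the variance trend, and 1 to 2 when a library was left out, LAMP2 being the gene lost. Quantile normalization added CD63 to it as a rise.

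No shared effect of the replicate numbers was seen. The correlations of same-numbered deviations were -0.0085, 0.063 and 0.0035, and not every library correlated best with its own number. With 3 libraries per group, such values cannot exclude a pairing by replicate number. With the numbers as a replicate block, 22 members were called (14 higher and 8 lower), ATG7 being the call lost (adjusted p = 0.074), and 7841 genes in all. Voom on the recovered reads, chosen after seeing the data, called 8516 genes and 27 members (15 higher and 12 lower). MITF, with as few as 144 reads in a library, was the member most limited by depth and was left out by the stricter filter.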
